A study of Taeniopygia guttata with 8 samples.

Results

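Acetylation of histone H3 at lysine 27 (H3K27ac) was compared between singing and silent adult male zebra finches in Area X, the song nucleus of the striatum. The comparison used 7 of the 14 ChIP-seq libraries in the deposited table of read counts. These were 4 libraries of Area X from birds labelled with 2 hours of singing and 3 libraries of Area X from silent birds. All 35958 regions of the table entered, and the remaining 7 libraries, from the pallial nucleus RA of singing and silent birds, served only to show how the same regions stood outside Area X. All birds of both groups were adult males kept alone in sound-attenuated chambers, and brains were taken after light onset and 1 to 2 hours of either behaviour. No genotype, drug or age in days is given in the labels.

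Each library stands for tissue pooled from 6 birds, so no value below belongs to 1 bird, and the cell types of the nucleus are mixed in every value. In such bulk tissue, a change in the share of a cell type and a change in the mark within a cell cannot be told apart. The labels state 3 pools per behaviour, while the singing columns number 4, and neither labels nor column names tell the origin of the additional library. If it repeats a pool, the p-values below measure technical spread in part. Column names carry plus or minus, taken here to stand for singing and silent, and the direction of every difference rests on that reading. A lysine 27 acetyl group is placed on histones by the acetyltransferases CBP and p300, and it marks active promoters and enhancers. Area X is part of the basal ganglia loop that songbirds need to learn and vary song, and singing is known to induce immediate early genes such as EGR1 and FOS there. The only annotation at hand describes another assembly than can be tied to these coordinates. Regions are therefore described by position, width and neighbours, and no gene, exon or promoter is assigned to them. For the same reason the tissue could not be checked against marker genes, and the activity-regulated genes could not be located.

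The Area X libraries held 4.84 to 8.28 M reads in regions in singing birds and 4.64 to 10.6 M in silent birds (M, 1e6 reads), with medians of 51 to 94 and 62 to 114 reads per region. The libraries did not divide by behaviour. Spearman coefficients across regions had a median of 0.909 among the 6 pairs of singing libraries, 0.92 among the 3 silent pairs and 0.933 among the 12 pairs that cross behaviours. Singing library 1 was the most distant from its own group, at 0.787 to singing library 3 and 0.82 to singing library 4, and it stood closer to silent library 1, at 0.95. The first principal component took 54.8% of the variance. Singing libraries 1 and 2 and silent library 1 lay on its one side, at -115.4, -37.2 and -66.2, and the other 4 libraries lay between 31.5 and 82. What sets these libraries apart was not tested.

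**Figure D1:**
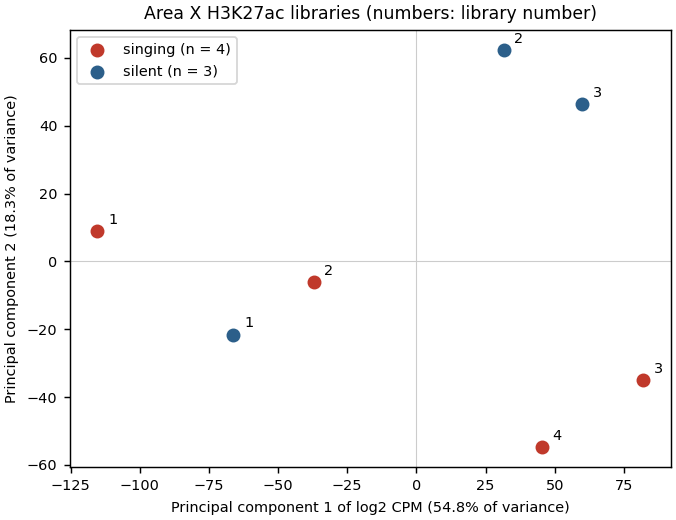
Area X libraries on the first 2 principal components of log2 CPM (counts per 1e6 reads, scaled by TMM), with 4 singing libraries in red and 3 silent libraries in blue, each marked with its number. The first component, with 54.8% of the variance, holds singing libraries 1 and 2 and silent library 1 apart from the other 4.

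No region passed the test between singing and silent in Area X, so the regions below are candidates given by their values. Of 35356 regions tested after a filter on low counts, 0 (0%) had an adjusted p under 0.05 in edgeR's quasi-likelihood test with Benjamini-Hochberg adjustment, and the smallest adjusted p was 1. At an unadjusted p under 0.05 there were 894 regions (2.53%), of which 306 (0.865%) had higher and 588 (1.66%) lower values in singing libraries. These are fewer than the 1768 regions that a uniform spread of p would give, so the count is no excess in this fit. That depended on the libraries used. The count rose to 2068 without singing library 1 and to 2667 without silent library 1, and fell to 310 without silent library 3. The DESeq2 test, fitted as an alternative, called 5 of the 23017 regions for which it gave an adjusted p (0.0217%), and all 5 are described below. The 95% interval of the log2 fold change reached a median of 0.78 to either side of the estimate. CPM did not overlap between the 4 singing and 3 silent libraries in 375 regions with higher values in singing (1.06%) and in 1171 with lower values (3.31%). With labels assigned at random, 35 assignments are possible, and each of these orders would take a share of 0.0286 of regions.

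The balance of higher and lower values moved with the scaling. With TMM, 34.2% of the regions at an unadjusted p under 0.05 were higher in singing. With DESeq2 size factors in edgeR this share was 45.9%, with total-count scaling 51.4%, with signal-dependent scaling 52.3% and with upper-quartile scaling 60.4%. Among regions that did not overlap, those lower in singing were more numerous under each of the 4 scalings counted, by differing margins. Beside the 375 higher and 1171 lower with TMM there were 485 higher and 851 lower with DESeq2 size factors, 533 higher and 853 lower with total counts, and 722 higher and 758 lower under signal-dependent scaling. Over all regions tested, the median log2 difference lay between -0.023 with TMM and 0.064 with upper quartiles. Single libraries moved the count of 894 and its balance as well. It was 2068 without singing library 1, 530 without singing library 2, 2667 without silent library 1, 342 without silent library 2 and 310 without silent library 3. The share higher in singing was 69.3% (1849 higher, 818 lower) without silent library 1 and 53.9% without singing library 1, but 19.9% (185 higher, 743 lower) without singing library 3 and 21.8% without singing library 4, so leaving out 1 library turned the direction of the balance. In the model of all 14 libraries it was 384, of which 65.9% were higher in singing. In each of these fits 0 regions had an adjusted p under 0.05.

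**Figure D2:**
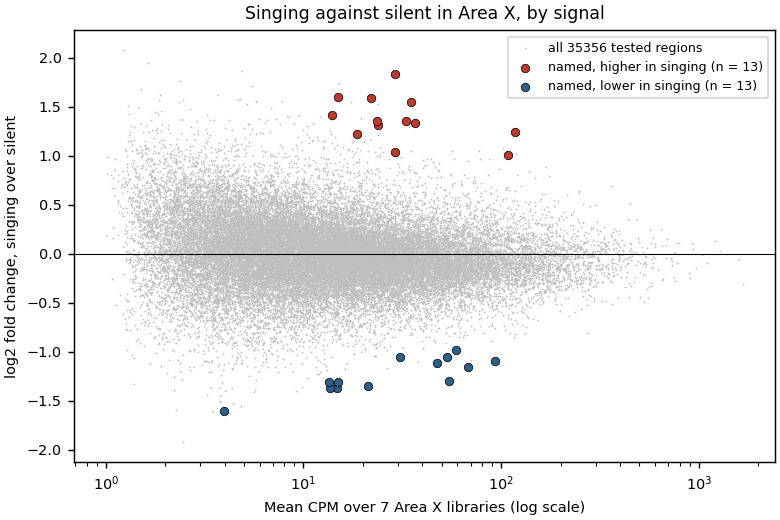
Fitted log2 fold change, singing over silent, against the mean CPM over the 7 Area X libraries on a log axis, for 35356 tested regions in grey, with the 13 named regions higher in singing in red and the 13 lower in singing in blue. The named regions lie between 1.00 and 1.83 above 0 or between 0.98 and 1.60 below it, and the cloud of all regions tilts from above 0 at low signal to below 0 at high signal.

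By a rule on p and on fold change, 26 regions were named, 13 in each direction. Because the rule used this contrast, their folds describe the extremes of the table and are not independent support for an effect. The 13 with higher values in singing differed by 2.00-fold to 3.56-fold and lay on 11 chromosomes or linkage classes, 1 of them unplaced. Their widths ran from 399 to 4373 bp, with a median of 1220 bp against 778 bp for all regions tested. The rule on fold admitted only regions with a mean CPM at or above the median. Median width rose with signal, from 344 bp in the lowest of 5 classes of mean signal to 2410 bp in the highest. The greater width was not separated from signal. The width of the named regions does not describe the larger sets. At an unadjusted p under 0.05 in edgeR, the median was 684 bp for the 306 regions higher in singing and 910.5 bp for the 588 lower. The 13 with lower values in singing were 1.97-fold to 3.04-fold lower, lay on 10 chromosomes, and were 251 to 3268 bp wide, with a median of 1047 bp.

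The strongest signal among regions higher in singing came from a pair of neighbours on chromosome 28. The region chr28:4251820-4256192 is 4373 bp wide. It had 99.1, 137, 212 and 173 CPM in the singing libraries 1 to 4, against 71.6, 64.7 and 60.3 CPM in the silent libraries 1 to 3. All 4 singing libraries stood above all silent ones, the silent libraries lay close together, and singing library 1 was nearest to them. The log2 fold change was 1.24 (SE 0.27, 95% interval 0.66 to 1.83, edgeR unadjusted p = 0.000489). Its neighbour chr28:4247805-4250206, separated by 1613 bp, had 106, 128, 171 and 147 CPM in singing and 70.0, 63.9 and 72.5 CPM in silent libraries. The log2 fold change there was 1.00 (SE 0.23, interval 0.51 to 1.5). The order of the singing libraries was the same in both, with library 3 highest and library 1 lowest.

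The regions around this pair lay in the same direction with smaller differences. At chr28:4243159-4245723, CPM was 107, 80.4, 68.1 and 65.6 in singing and 63.7, 63.4 and 61.2 in silent libraries, and there singing library 1 was the highest. The log2 fold change was 0.36 at an unadjusted p of 0.163 in edgeR. At the narrow region chr28:4246762-4247223, between that one and the named pair, it was 0.61 with overlapping values. On the far side, chr28:4264797-4266733 had 0.29, with 55.7, 57.2, 84.6 and 79.8 CPM in singing and 52.2, 56.2 and 61.9 CPM in silent libraries.

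The smallest unadjusted p among regions higher in singing belonged to chr4:1194200-1195164, a 965 bp region with 51899 bp to the nearest region on its left and 24218 bp to that on its right. It had 39.2, 50.1, 46.2 and 42.3 CPM in singing libraries, against 22.3, 18.8 and 11.4 CPM in silent libraries. The means were 44.5 ± 4.73 CPM in singing and 17.5 ± 5.53 CPM in silent libraries (SD, n = 4 and 3). Here the singing libraries lay close together, with library 1 the lowest of them. Its log2 fold change was 1.35 (SE 0.29, edgeR adjusted p = 1), and DESeq2 called it with an adjusted p of 0.0363. A second region called by DESeq2 in this direction was chr18:10946289-10946788, 500 bp wide, with 20.3, 25.9, 28.6 and 23.6 CPM in singing and 9.51, 11.7 and 10.3 CPM in silent libraries (DESeq2 adjusted p = 0.0438). The region 768 bp to its left, chr18:10944923-10945520, had a log2 fold change of 1.15 with values that did not overlap, while chr18:10950339-10951888, 3550 bp to its right, had -0.12.

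Chromosome 1 held a pair of named regions higher in singing. At chr1:7674570-7676149, CPM was 31.5, 44.5, 60.2 and 60.9 in singing and 20.4, 20.9 and 17.5 in silent libraries (log2 fold change 1.33, interval 0.70 to 1.96). At chr1:6642839-6643656 it was 23.3, 29.6, 37.7 and 38.1 in singing and 15.8, 13.6 and 9.60 in silent libraries (log2 fold change 1.31, interval 0.65 to 1.97). Singing libraries 3 and 4 were the highest at both. The neighbours of the second, chr1:6644430-6645562 and chr1:6648470-6649733, had log2 fold changes of 0.82 and 0.61, and at chr1:6648470-6649733 the values did not overlap.

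At the named regions with the largest fold changes, the singing libraries spread widely. At chrUn:63292070-63293818 on unplaced sequence, CPM was 15.5, 29.4, 55.0 and 68.6 in singing and 14, 12.2 and 9.5 in silent libraries, a 3.56-fold difference (interval of the log2 value 0.86 to 2.80). Singing library 1 stood only just above silent library 1 there. The same pattern was seen at chr1A:54410478-54412120, with 19.8, 31.7, 80.5 and 64.2 CPM in singing and 15.6, 18.7 and 15.8 CPM in silent libraries. At chr13:1122095-1123314, CPM was 12.0, 26.2, 51.0 and 34.1 in singing and 11.1, 8.54 and 10.9 in silent libraries. At chr3:22103694-22104790 it was 12.4, 15.8, 29.3 and 25.9 in singing and 9.51, 6.49 and 4.90 in silent libraries. Singing library 1 was the lowest singing library in 12 of the 13 regions higher in singing and the highest in 0. This order is the one of the first principal component, on which singing libraries 3 and 4 lie opposite singing library 1. Silent library 1, on the same side of that component, was the highest silent library in 6 of the 13 and the lowest in 3.

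The other 3 regions of this direction are on chromosomes 14, 8 and 21. The region chr14:5350477-5351847 had 33.8, 31.1, 39.5 and 44.3 CPM in singing and 17.4, 18.7 and 18.2 CPM in silent libraries, and it was the 1 region where singing library 2 and not library 1 was lowest. At chr8:27148822-27149642, CPM was 19.7, 26.3, 45.3 and 35.6 in singing and 12.3, 10.6 and 14.2 in silent libraries. The region chr21:3520866-3521264, the narrowest of the 13 at 399 bp, had 11.2, 15.5, 28.0 and 21.3 CPM in singing and 6.88, 7.91 and 6.54 CPM in silent libraries. Across these 3 the folds were 2.05, 2.55 and 2.66.

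**Figure D3:**
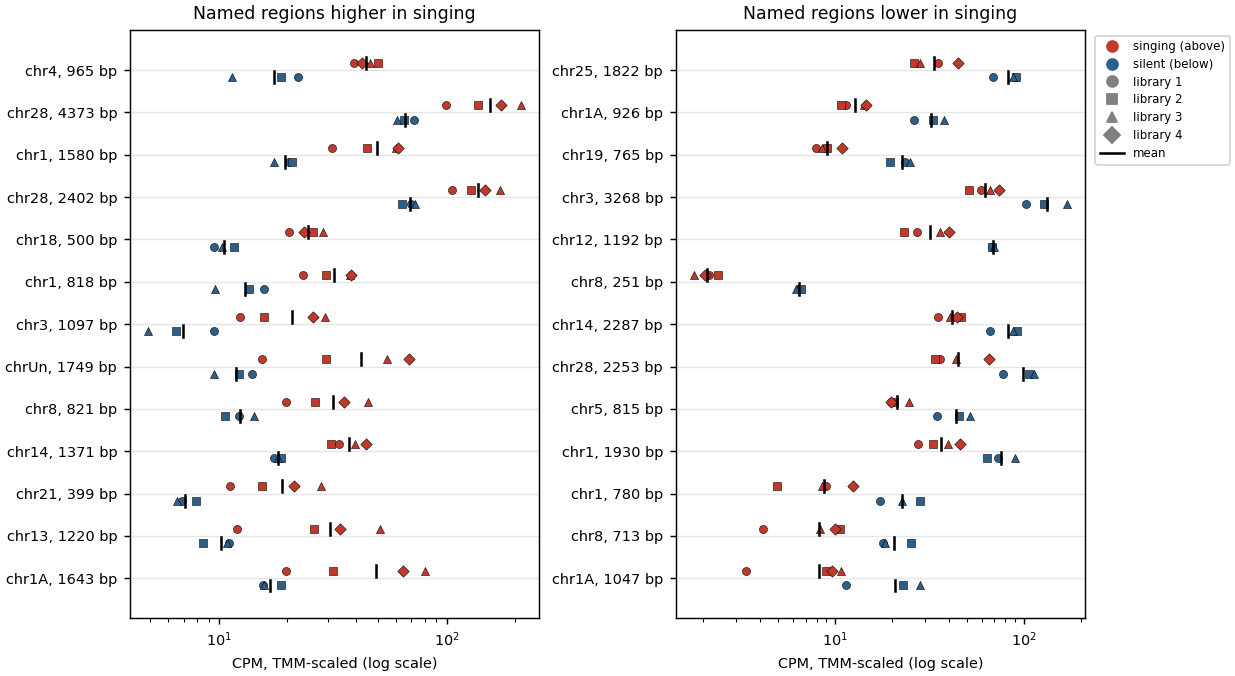
TMM-scaled CPM on a log axis in each Area X library at the 13 named regions higher in singing (left) and the 13 lower in singing (right), with singing libraries in red above silent libraries in blue, symbols for the library number and bars for the means. Rows are labelled by chromosome and width and run from the smallest p at the top, the values of the groups do not overlap in any of the 26 rows, and red circles (singing library 1) are leftmost of the singing libraries in 12 of 13 rows on the left.

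Among regions lower in singing, the smallest unadjusted p belonged to chr25:496958-498779, 1822 bp wide. It had 35.1, 26.3, 28.2 and 45.1 CPM in singing libraries, against 69.0, 91.5 and 87.7 CPM in silent libraries. The highest singing library was well below the lowest silent one. The log2 fold change was -1.29 (SE 0.26, interval -1.85 to -0.74, edgeR unadjusted p = 0.000229), a mean of 33.7 ± 8.51 CPM in singing and 82.7 ± 12.0 CPM in silent libraries (SD, n = 4 and 3). Its neighbour on the left, chr25:487121-488184, had -0.57 and chr25:504530-505773 on the right had -0.26, both with overlapping values.

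DESeq2 called this region and a further 2 lower in singing, each with an adjusted p of 0.0438. At chr1A:53516675-53517600, CPM was 11.4, 10.8, 14.2 and 14.6 in singing and 26.1, 33.1 and 37.8 in silent libraries (edgeR log2 fold change -1.34, SE 0.27, adjusted p = 1). At chr19:6366644-6367408 it was 7.94, 9.12, 8.57 and 10.9 in singing and 23.5, 19.5 and 25 in silent libraries (edgeR log2 fold change -1.31, SE 0.28, adjusted p = 1). The singing libraries were tight at both, and library 1 did not stand apart from them. On either side of the chromosome 19 region, chr19:6364296-6365875 had a log2 fold change of -0.36 and chr19:6369252-6370517 one of -0.63, the second with values that did not overlap.

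The highest signal of this direction was at chr3:20185646-20188913, the widest of the 13 at 3268 bp, with 59.4, 51.1, 65.9 and 74.2 CPM in singing and 103, 128 and 169 CPM in silent libraries. Its nearest regions lay 16410 and 25089 bp away. At chr28:2753675-2755927, on the chromosome that also held the named pair higher in singing, CPM was 35.9, 33.8, 44.0 and 65.4 in singing and 78.1, 107 and 113 in silent libraries. The wide region next to it, chr28:2757575-2763009, was 97.3, 95.6, 108 and 106 CPM in singing and 115, 124 and 128 CPM in silent libraries, a log2 fold change of -0.26. The named pair and this region thus lay on 1 chromosome with opposite signs.

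At chr12:2257128-2258319 the silent libraries were nearly equal. They had 67.8, 68.0 and 69.4 CPM, and the singing libraries 27.2, 23.3, 36.1 and 40.3 CPM. The smallest values of the whole list were at chr8:22324432-22324682, 251 bp wide, with 2.15, 2.39, 1.80 and 2.05 CPM in singing and 6.48, 6.65 and 6.23 CPM in silent libraries. Its log2 fold change of -1.60 was the largest of this direction and rested on 8 to 61 reads per library. At chr14:9398679-9400965, CPM was 35.1, 46.6, 40.8 and 44.1 in singing and 66.4, 92.4 and 87.5 in silent libraries. At chr5:46521066-46521880 it was 19.8, 20.6, 24.6 and 19.8 in singing and 34.6, 45.3 and 52.0 in silent libraries.

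The other 4 regions lower in singing were chr1:98004938-98006867, chr1:4072641-4073420, chr8:3219358-3220070 and chr1A:71619589-71620635, with log2 fold changes of -1.05, -1.37, -1.31 and -1.37. At chr1:98004938-98006867, CPM was 27.5, 32.9, 39.5 and 45.7 in singing and 72.8, 63.8 and 89.4 in silent libraries. At chr8:3219358-3220070 it was 4.17, 10.6, 8.34 and 10 in singing and 18, 25.2 and 18.5 in silent libraries, and singing library 1 stood well below the rest. The region chr1A:71619589-71620635 had the largest unadjusted p of the 26, at 0.00572 in edgeR. It had 3.37, 8.97, 10.8 and 9.65 CPM in singing and 11.5, 22.9 and 28.3 CPM in silent libraries, so silent library 1 stood just above the highest singing library. Silent library 1 was the lowest silent library in 10 of the 13 regions lower in singing and the highest in 0. Singing library 1 was the lowest singing library in 5 of the 13. With both number 1 libraries left out, a choice made after seeing the data, edgeR called 0 regions. With any 1 Area X library left out, the log2 values were between 0.89 and 2.11 in size for the regions higher in singing and between 0.87 and 1.67 for those lower. Their direction in these fits is fixed by the choice of regions without overlap and says nothing of stability.

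Regions near a named region tended to lie on its side. Within 10 kb of 10 regions higher in singing there were 26 other regions, and 23 of them had a log2 fold change above 0, with a median of 0.51 and a range of -0.12 to 1.4. Of these 26, 6 had an unadjusted p under 0.05 in edgeR in the same direction, against 0.865% of all regions. Within 10 kb of 7 regions lower in singing there were 15, and 13 of them were below 0, with a median of -0.26 and a range of -0.63 to 0.41. Of these 15, 2 had an unadjusted p under 0.05 in edgeR in the same direction, against 1.66% of all regions. For comparison, 62.4% of all 18306 adjacent pairs up to 10 kb apart had the same sign. Across all adjacent pairs, the log2 fold changes correlated with r = 0.47 at gaps up to 1000 bp, 0.32 at wider gaps up to 10000 bp, 0.16 at wider gaps up to 100000 bp and 0.07 beyond, a description across 35356 regions that share the same 7 libraries. Because adjacent values vary together, a lean of neighbours toward the side of a picked region follows in part from the picking. Neither the 62.4% nor the shares of all regions is a matched baseline for it. Of the named regions, 3 higher and 6 lower in singing had no other region within 10 kb.

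**Figure D4:**
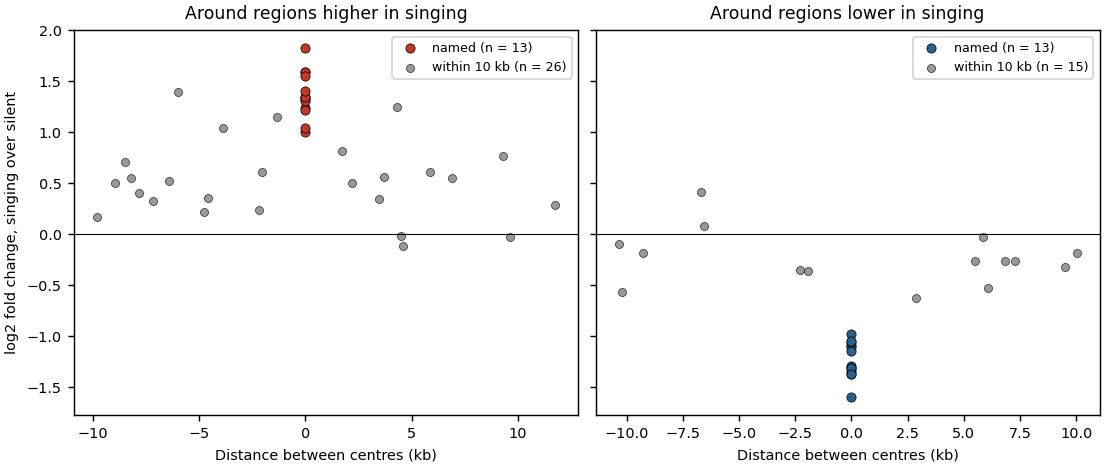
Log2 fold change, singing over silent, of the named regions (coloured, at distance 0) and of other regions within 10 kb of them (grey), against the distance between centres in kb, for regions higher in singing (left) and lower in singing (right). On the left 23 of 26 neighbours lie above 0, and on the right 13 of 15 lie below 0.

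Runs of at least 3 consecutive regions without overlap between the groups, at gaps of at most 10 kb, numbered 16 toward lower values in singing and 1 toward higher values. None held a named region, and the runs described here were picked after their values were seen. Runs were counted with TMM only, where regions without overlap numbered 1171 lower and 375 higher in singing. They were not recounted under signal-dependent scaling, where such regions numbered 758 lower and 722 higher. Whether the imbalance of runs holds under other scalings was not tested. The longest run lay at chr11:11428044-11472948, where 6 regions cover most of 44905 bp. Their summed CPM was 884, 935, 947 and 931 in singing libraries and 1180, 1250 and 1450 in silent libraries, and the single log2 fold changes lay between -0.87 and -0.37. The sums lay close together in the singing libraries, at 924 ± 27.5 CPM, against 1290 ± 142 CPM in silent libraries (SD, n = 4 and 3). Most of the reads came from 2 domains, chr11:11436512-11452215 (15704 bp) and chr11:11456029-11472948 (16920 bp), with log2 fold changes of -0.45 and -0.49. In RA the same 6 regions summed to 1030 to 1320 CPM in singing and to 1160, 1370 and 1690 CPM in silent libraries. The groups thus overlapped in RA, while the fitted RA log2 fold changes were below 0 at all 6, from -0.4 to -0.06.

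Chromosome 11 held 2 further runs toward lower values, at chr11:10489347-10507579 and chr11:10688753-10704070. In the first, summed CPM was 161, 159, 156 and 143 in singing and 221, 226 and 261 in silent libraries. In the second it was 368, 341, 380 and 366 in singing and 462, 518 and 554 in silent libraries. Of 719 regions tested on that chromosome, 30 (4.17%) were lower in singing at an unadjusted p under 0.05 in edgeR and 0 were higher. Over all regions tested the shares were 1.66% and 0.865%. These counts were made with TMM only, and the chromosome was described after its values were seen. Shares lower and higher in singing were 3.9% and 0.433% on chromosome 22, 3.67% and 1.83% on chromosome 25, and 3.51% and 0.319% on chromosome 27. The share of all reads that fell on chromosome 11 overlapped between the groups, at 2.21% ± 0.18 in singing and 2.34% ± 0.17 in silent libraries. The only run toward higher values was chrZ:39110015-39130693. Its 3 regions summed to 544, 777, 715 and 569 CPM in singing and 485, 466 and 379 CPM in silent libraries, with log2 fold changes of 0.51 to 0.74. In RA these summed to 568 to 672 CPM in singing and 565 to 753 CPM in silent libraries, with fitted log2 fold changes of 0.5, 0.07 and -0.21.

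The fitted difference between singing and silent varied with the strength of the signal. In the lowest of 5 classes of mean signal, the median log2 fold change was 0.11 and 61.2% of regions were above 0. In the highest it was -0.09 and 33.9%. Regions at an unadjusted p under 0.05 and lower in singing made up 0.735% of the lowest class and 2.93% of the highest, whereas the shares higher in singing were 0.636% and 0.891%. By width, 2.91% of the 1549 regions over 4000 bp were lower in singing at that p and 0.904% higher, against 1.48% and 0.93% of the 10431 regions up to 500 bp. These class values come from the edgeR fit with TMM alone. They were not recounted under signal-dependent scaling, where 514 regions were higher and 469 lower at that p in edgeR. That scaling fits the trend of each library with mean signal and takes it out. The trend of the median with signal can therefore not be judged under it. Whether the shares by signal and width outlast that scaling was not tested.

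No difference in the share of reads taken by the 7 width and chromosome classes passed the test. Regions over 4000 bp took 29.1% ± 3.04 of the reads in singing and 28.9% ± 1.95 in silent libraries (SD, n = 4 and 3, exact two-sided permutation p = 1). Regions up to 500 bp took 5.74% ± 0.585 in singing and 5.66% ± 0.727 in silent libraries (exact permutation p = 0.857). The class between 1000 and 4000 bp took 50.7% ± 0.787 in singing and 51.1% ± 0.244 in silent libraries, a difference of -0.345 percentage points that was larger than the SD of the silent libraries and smaller than that of the singing libraries (exact permutation p = 0.457). Chromosomes 1, 1A, 2 to 5 and Z together took 41.2% ± 2.02 in singing and 40.8% ± 1.63 in silent libraries (exact permutation p = 0.886). All 7 classes had an adjusted p of 1, and the smallest p that the 35 assignments allow is 0.0286. Within each behaviour the share in regions over 4000 bp followed the first principal component. It was 25.6% in singing library 1 and 27.6% in singing library 2, against 31.9% and 31.4% in singing libraries 3 and 4. In silent library 1 it was 26.9%, against 29.3% and 30.7% in silent libraries 2 and 3.

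Most named regions were more strongly acetylated in Area X than in RA, in both directions of the singing difference. Averaged over behaviour, 13 of 13 regions higher in singing and 12 of 13 lower in singing had a fitted level above that in RA, while 48.6% of all regions did. Among all regions at an unadjusted p under 0.05, the share above RA was 69.9% of the 306 higher and 86.4% of the 588 lower in singing. These levels include the Area X libraries that chose the regions, so the shares are a description.

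RA took no part in choosing the regions, and singing against silent was tested there in a model of all 14 libraries. In RA 0 regions passed, and 706 (1.96%) had an unadjusted p under 0.05 in edgeR. All 13 regions higher in singing in Area X had a fitted RA difference above 0, with a median log2 of 0.39, and 46% of all regions were above 0 in RA. Of the 13 lower in Area X, 10 were below 0 in RA, with a median of -0.14. The values of singing and silent RA libraries overlapped at all 26. At an unadjusted p under 0.05 in RA were chr14:5350477-5351847 (log2 1.05, interval 0.34 to 1.77), chr3:22103694-22104790 (1.31) and chr1A:54410478-54412120 (1.54) among the higher, and chr1A:53516675-53517600 (-1.28) and chr12:2257128-2258319 (-0.79) among the lower. The adjusted p was above 0.05 for each. The labels do not say whether RA and Area X came from the same birds.

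The RA values rest on libraries that stand apart. RA silent library 2 correlated with the Area X libraries at a median Spearman coefficient of 0.904 and with the other RA libraries at 0.809. RA singing library 4, with 0.203 M reads in regions, stood at 0.791 and 0.691. The remaining RA libraries were at 0.58 to 0.715 to Area X and at 0.781 to 0.818 to RA. RA silent library 2 thus stood apart in its likeness to Area X and not in that to RA. RA silent library 2 was the highest RA silent library at 12 of the 13 regions lower in singing in Area X. At chr25:496958-498779 it had 62.1 CPM, against 10.3 and 8.83 CPM in RA silent libraries 1 and 3, with 12.5, 15.9, 26.7 and 26.1 CPM in RA singing libraries. Without these 2 libraries, 5 of the 13 lower regions, and not 10, were below 0 in RA, and their median log2 value was 0.45. Of the 13 higher regions, 10 were still above 0, with a median of 0.33. At chr12:2257128-2258319 the RA difference was then -0.44 (edgeR unadjusted p = 0.244). The other regions listed above at an unadjusted p under 0.05 in RA stayed under it. The RA difference at chr25:496958-498779 was then 0.95 (interval 0.12 to 1.78, edgeR adjusted p = 0.772). It was opposite in sign to that in Area X but did not pass the adjusted threshold.

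The difference of the singing effect between the nuclei passed at 0 of the 26 named regions and at 0 of all regions, of which 211 (0.587%) had an unadjusted p under 0.05 in edgeR. Among the named regions 7 did, 5 of them higher in singing, although the Area X part of that difference had chosen them. Without RA silent library 2 and RA singing library 4 an unadjusted p under 0.05 was found for this difference at 4 named regions higher and 9 lower in singing, again with 0 past the adjusted threshold. The share of all regions at that p was not counted in this fit. The Area X part had chosen these regions here too, so the count does not show that they are particular to Area X. At chr4:1194200-1195164 the RA libraries gave 22.9, 20.9, 19.3 and 30.4 CPM in singing and 24.4, 18.8 and 23.2 CPM in silent libraries, an RA log2 fold change of 0.01 (interval -0.60 to 0.62). Area X minus RA was 1.42 there (interval 0.58 to 2.25, edgeR adjusted p = 1), and 1.6 (interval 0.72 to 2.48) without those 2 RA libraries. At chr25:496958-498779 it was -0.77 (interval -2.34 to 0.79) with all libraries and -2.19 (interval -3.25 to -1.13) without them. At chr28:4251820-4256192 it was 1.30 (interval 0.41 to 2.19) with RA at 0.02, and at chr28:4247805-4250206 it was 0.98 (interval 0.18 to 1.77) with RA at 0.10. At chr14:5350477-5351847, where the model of 14 libraries gave a log2 fold change of 1.1 in Area X and 1.05 in RA, it was 0.05 (interval -0.93 to 1.02).

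**Figure D5:**
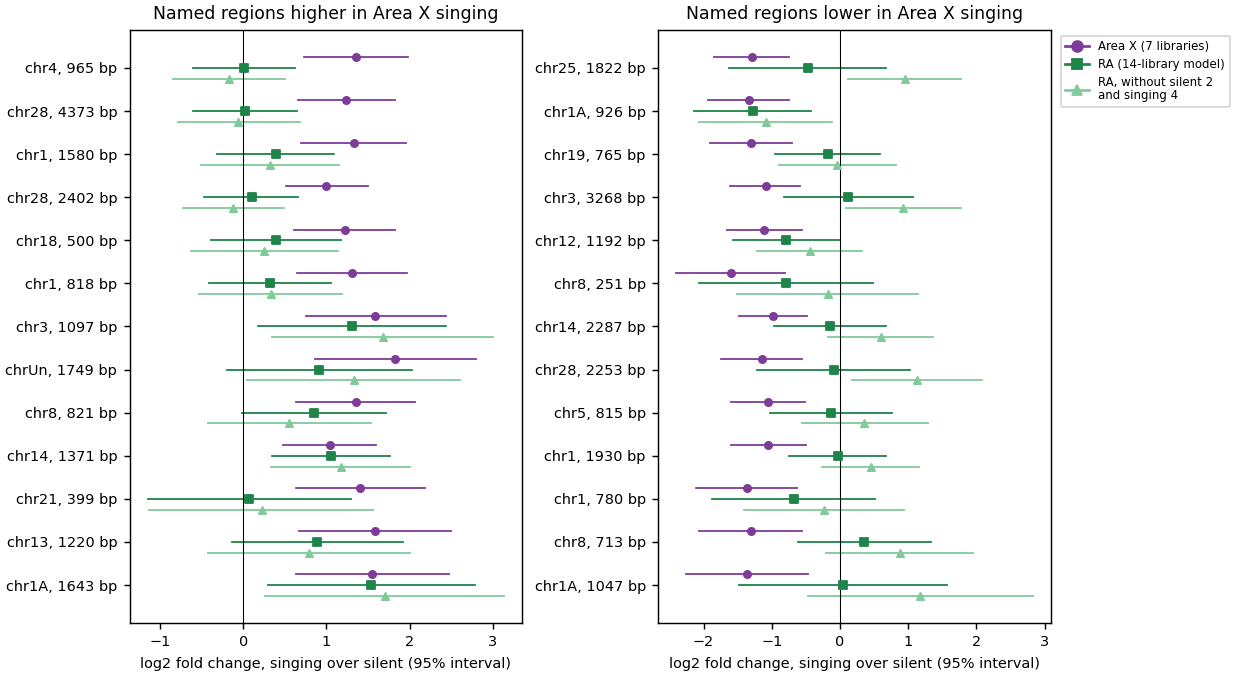
Log2 fold change, singing over silent, with 95% intervals at the 13 named regions higher (left) and the 13 lower (right) in singing in Area X, for Area X (purple, 7 libraries), for RA in the model of 14 libraries (dark green) and for RA without silent library 2 and singing library 4 (light green). At chr4 (965 bp) the RA estimates are 0.01 and -0.17, at chr14 (1371 bp) they are 1.05 and 1.17, and for chr25 (1822 bp) they are -0.47 and 0.95.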

How the data were processed

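H3K27ac ChIP-seq libraries were analysed from 1 table of raw read counts per region, as deposited by the authors. The submitters' processing notes name HTSeq 0.6.1, MACS2 2.1, SAMtools 1.1 and bedtools without saying what each did. Aligner, genome build and region calling: not given in the sources used here. Starts were read as counted from 0 and are printed counted from 1. The smallest gap between regions was 501 bp. Counts were fitted in R 4.3.3 with edgeR 4.0.16 (filterByExpr, TMM, glmQLFit with robust dispersions, glmQLFTest) on the 7 Area X libraries, and adjusted p-values are Benjamini-Hochberg over all 35356 regions tested. The filter removed 602 regions. RA and the difference between nuclei came from 1 model of all 14 libraries, and RA CPM is scaled with it. Standard errors were taken as the size of the log2 fold change divided by the root of its F statistic. DESeq2 1.42.0 and limma 3.58.1 were alternatives. DESeq2 gave no adjusted p for 12339 tested regions. The edgeR fit was checked on simulated counts. Pairs of Area X libraries differed beyond sampling noise, with a chi-square per degree of freedom of at least 4.22, found for singing libraries 3 and 4. All were kept as separate samples. This value cannot tell separate pools from repeated libraries of the same pool. Numbered libraries are not stated to be paired. Named regions are the 10 with the smallest p in each direction and the 5 with the largest fold in each direction among regions without overlap and with a mean CPM of at least the median, 12.4. Members, lists and tests were chosen with earlier results of these data known. Whole-cell extracts were not analysed here. Intervals of the fitted values rest on the spread between libraries.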

Additional observations from a re-analysis of the deposited data

Results flagged for a closer look

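At chr1A:71619589-71620635, a named region lower in singing in Area X, RA singing library 3 stood far above the other RA singing libraries. It had 18.7 CPM, against 2.82, 1.67 and 4.35 CPM in libraries 1, 2 and 4, so that 0.843 of the spread of the 4 values lies between it and the next library, more than Dixon's 95% limit for 4 samples. RA singing libraries 2 and 4 held 1.08 M and 0.203 M reads in regions, so their values at this region rest on few reads. RA silent library 2 had 16.1 CPM there, against 2.85 and 4.32 CPM in RA silent libraries 1 and 3. This was the 1 such case among 59 groups of 4 libraries, where about 1 in 20, or 2.95, would come by chance. No group of Area X singing libraries was picked out at the 26 named regions or in the 7 shares of reads. Silent groups have too few libraries for this test.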

How the results depend on the processing

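The 0 calls in Area X held in edgeR and limma fits under the other scalings, filters and models tried, and in the 7 fits that left out 1 library (0 to 0), but not in 2 alternatives. DESeq2 called 5 regions, 2 higher and 3 lower in singing. With the library number as a block on libraries 1 to 3, edgeR called 156 regions, 30 higher and 126 lower, of which 24 were among the 26 named. The named regions were chosen by p and fold on counts that include these libraries, so their being called here is no separate support. The number of regions tested under the block is not given here. The numbers are not stated to pair libraries. Deviations from the group means correlated at 0.58, 0 and 0.56 for the numbers 1, 2 and 3, and singing library 2 correlated best with silent library 1 (0.21). The cause of the higher count was not tested. Without both number 1 libraries the smallest adjusted p was 0.193, without singing library 1 alone it was 0.148, and with quality weights in limma 0.0836. The count at an unadjusted p under 0.05, 894 regions, was 489 when regions below the median CPM were left out, 4866 with quality weights, 384 in the model of 14 libraries, 2836 with the block and 3378 without both number 1 libraries. The signs of the named regions are fixed by how they were chosen, so that their being the same in the fits tried shows no stability. The direction in RA was the same as in Area X for 23 of the 26 named regions, for 15 without RA silent library 2 and RA singing library 4, and for 22 without the number 1 libraries of RA. For shares of reads the count of classes past the threshold was 0 throughout (0 to 0). With all 7 libraries a single class could not have passed after adjustment. With 1 library left out no class could have passed, because the assignments that remain are too few for a p under 0.05. Those fits therefore decide nothing. Depth limits the narrow region on chromosome 8 most.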
